A study of Mus musculus with 10 samples.

Results

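The T cell genes described here are Cd4, Cd3d, Cd3e, Cd3g, Cd8a, Trac, Trbc1, Trbc2 and Lck, which are 9 of the 45906 rows of the deposited gene count table. They were taken by symbol and without a filter on expression, and 4 of them (Cd4, Cd3g, Trbc1 and Lck) passed the default filter on low counts that was used for tests over all genes. The RNA came from an immune cell preparation of substantia nigra and striatum of male C57BL/6 mice. The EV group (5 libraries) received an adeno-associated virus of serotype AAV1/2 without a transgene, and the A53T group (5 libraries) received AAV1/2 encoding A53T haSyn, human α-synuclein with a mutation found in familial Parkinson disease. All mice were injected at an age of 10 to 12 weeks and their tissue was taken 16 weeks later, at 26 to 28 weeks. The tissue was digested with collagenase and the cells were enriched on a Percoll gradient, no cell sort is named, and nothing is said of the promoter in the vector. Replicates are known by number only, so p-values measure the spread between these libraries, part of which may be technical.

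A T cell recognises peptide bound to an MHC molecule through its receptor, a pair of α and β chains (constant parts encoded by Trac and by Trbc1 or Trbc2) or of γ and δ chains. The receptor signals through the CD3 proteins (Cd3d, Cd3e, Cd3g and the ζ chain Cd247). The coreceptors CD4 and CD8 bind MHC class II and class I and bring the kinase Lck to the receptor, after which Zap70 is recruited. In the healthy brain T cells are rare, and T cells have been found near dying dopaminergic neurons in Parkinson disease and in its mouse models. Cd4 is not a strict T cell marker: in rats macrophages and microglia carry CD4, and a short Cd4 transcript without the first exons has been described in mouse brain.

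The libraries held between 12386305 and 21780086 counts. A floor of 3 reads, the most that a count of 0 allows, was 0.136 to 0.237 CPM (counts per 1000000 of the TMM-scaled library total), and covers counting error only. The preparation held more than immune cells: over the 10 libraries the 12 homeostatic microglia markers summed to 359 to 7038 CPM, and the 12 general neuron markers to 237 to 1589.7 CPM. The libraries labelled A53T replicates 3 and 4 had the lowest neuron levels and the highest microglia levels. The library labelled A53T replicate 3 held 10 transgene reads, against 1217 to 2223 in the other A53T libraries and 0 or 1 in EV, so it goes against its label. The relations of Cd4 with neuron and microglia markers are given with and without the libraries labelled A53T replicates 3 and 4. Most other correlations are given over all 10 libraries only. 5 libraries (EV replicates 1, 2 and 3 and A53T replicates 1 and 2) held 100 or more reads of the salivary gland gene Bpifa2. In a bulk preparation fewer cells of a type and less RNA per cell cannot be told apart.

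Cd4 was by far the most read of the 9 genes, and its reads were present in every library. It had 1883 reads, 889 in EV and 994 in A53T. In EV it had 197, 248, 147, 180 and 117 reads in replicates 1 to 5, which is 13.6, 15.2, 11.6, 9.31 and 5.58 CPM. In A53T it had 229, 311, 130, 52 and 272 reads, which is 11.9, 20.9, 5.91, 2.40 and 16.9 CPM. The A53T group held both the highest library (replicate 2) and the lowest (replicate 4), and the EV values lay between them. The mean was 11.1 ± 3.77 CPM over the EV libraries and 11.6 ± 7.61 CPM over the A53T libraries (SD, n = 5 each).

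The other members had far fewer reads, and all of them but Lck were at 0 in at least 1 library. Per length of exon, the level of Cd4 averaged 3.26 RPKM (CPM per 1000 bases of exon) over the 10 libraries, against 1.26 for Trac, 1.09 for Trbc1, 0.937 for Cd3g, 0.702 for Lck, 0.613 for Trbc2, 0.277 for Cd3e, 0.135 for Cd8a and 0.0338 for Cd3d. A mature CD4 T cell carries the receptor and all 3 CD3 chains, and the mean of Cd4 stood above that of each of these genes. This did not hold in every library. In EV replicate 3 Trac had 7.22 RPKM against 3.35 for Cd4, and in the library labelled A53T replicate 3 Cd3g had 2.44 against 1.70. In A53T replicate 4 Cd4 had 0.691 RPKM, below Trac (2.13), Trbc1 (1.42), Trbc2 (1.06), Cd3e (1.03) and Lck (0.971). For Cd3d, Cd3e, Cd3g, Cd8a, Trac and Trbc1 the SD over the EV libraries exceeded the mean, so the order of these genes is not fixed by the values.

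Cd4 lies on chromosome 6 of GRCm38.p6, from 124864693 to 124888247 on the minus strand, and Cd8a, Trbc1 and Trbc2 lie on the same chromosome. Cd3d, Cd3e and Cd3g are clustered on chromosome 9, Trac is on chromosome 14 and Lck on chromosome 4. GENCODE M21 annotates 5 Cd4 transcripts, 4 of them noncoding, and a count per gene cannot say which of them was read. The following stretches, all on the minus strand of GRCm38, show where the annotated transcripts part: the start of the coding sequence in exon 2 of the full-length protein-coding transcript with the start codon in capitals (chr6:124879603-124879654), a part of its exon 9 that encodes the intracellular tail with the 2 cysteine codons that hold Lck in capitals (chr6:124866604-124866671), and the first 60 bases of a short noncoding transcript of 4 exons (chr6:124870430-124870489), which lie within exon 6 of the full-length one.
Full-length Cd4, exon 2: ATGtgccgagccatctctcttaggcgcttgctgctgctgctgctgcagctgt
Full-length Cd4, exon 9: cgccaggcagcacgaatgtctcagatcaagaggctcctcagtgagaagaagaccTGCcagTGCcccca
Short Cd4 transcript, start: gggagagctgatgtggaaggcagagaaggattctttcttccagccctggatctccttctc
Reads of the first stretch can come from the full-length transcript and not from the short one, while reads of the third can come from either. Annotated noncoding transcripts with a retained intron also span the position of the first stretch (124878741 to 124888200 and 124867333 to 124888199). Whether they hold that stretch was not tested. Whether the short transcript shown is the one described in mouse brain is not known from these files.

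**Figure D1:**
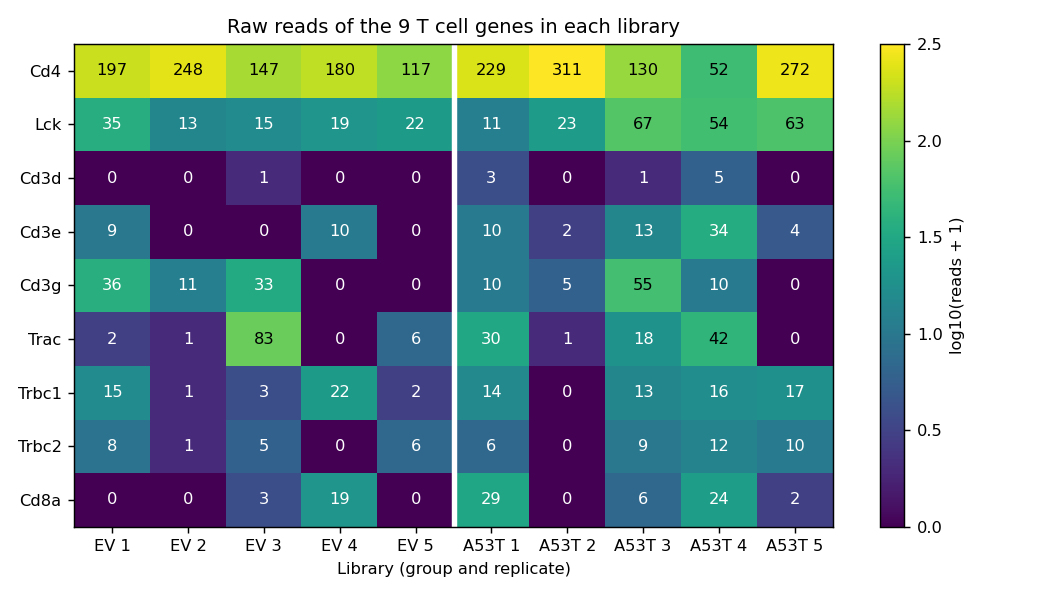
Raw reads of the 9 T cell genes (rows) in the 5 EV and 5 A53T libraries (columns), with the read number printed in each cell and the colour giving log10(reads + 1). Cd4 had 52 to 311 reads in every library, whereas Cd3d was at 0 in 6 of 10 libraries.

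Among the CD3 chains, Cd3g was the most read with 160 reads. It had 36, 11, 33, 0 and 0 reads in EV replicates 1 to 5 and 10, 5, 55, 10 and 0 in A53T. The 3 libraries at 0 allow up to 0.155 CPM (EV replicate 4), 0.143 CPM (EV replicate 5) and 0.186 CPM (A53T replicate 5), and the groups overlapped. Cd3e had 82 reads, with 9, 0, 0, 10 and 0 in EV and 10, 2, 13, 34 and 4 in A53T. It was read in all 5 A53T libraries and in 2 EV libraries, and the lowest A53T level (0.135 CPM) was below the floor of the EV libraries at 0, so the groups could not be separated at this depth. Cd3d had 10 reads in all, 1 in EV and 9 in A53T, over 4 libraries, of which A53T replicate 4 alone held 5.

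The constant chains of the receptor were also sparse and uneven. Trac had 183 reads, with 2, 1, 83, 0 and 6 in EV and 30, 1, 18, 42 and 0 in A53T. EV replicate 3 alone held 45.4% of all Trac reads, and this library had only 3 Trbc1 and 5 Trbc2 reads. Trbc1 had 103 reads, with 15, 1, 3, 22 and 2 in EV and 14, 0, 13, 16 and 17 in A53T, and Trbc2 had 57, with 8, 1, 5, 0 and 6 in EV and 6, 0, 9, 12 and 10 in A53T. Trbc1 and Trbc2 are near-identical copies and the counting may have split their reads, so their separate values are uncertain. The genes of γδ T cells were fewer still: Trdc had 17 reads, Tcrg-C1 3, Tcrg-C2 14 and Tcrg-C4 0.

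Cd8a, the α chain of the CD8 coreceptor, had 83 reads, with 0, 0, 3, 19 and 0 in EV and 29, 0, 6, 24 and 2 in A53T. Its partner Cd8b1 had 77 reads and was at 0 in 5 libraries. Cd8a reads thus came in 6 libraries, and those with the most were A53T replicates 1 and 4 and EV replicate 4. Lck was read in every library. It had 35, 13, 15, 19 and 22 reads in EV and 11, 23, 67, 54 and 63 in A53T, or 0.796 to 2.42 CPM and 0.570 to 3.91 CPM. The libraries labelled A53T replicates 3, 4 and 5 were above every EV library, and A53T replicate 1 was below every EV library. Zap70, the kinase that acts after Lck, had 101 reads, and the ζ chain gene Cd247 had 162.

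No difference between A53T and EV passed the test for any of the 9 genes. In the edgeR quasi-likelihood test over 17409 genes 0% of all genes were called at a Benjamini-Hochberg adjusted p of 0.05, and in the same test over all 32637 rows with at least 1 read again 0% were called. The injected transgene itself was not called over the 17409 genes, at a log2 fold change of 11.9 ± 1.53 (SE, edgeR adjusted p = 0.105). The test thus missed a known difference, and the lack of a call does not show equal levels. At an unadjusted p under 0.05 there were 378 and 2210 genes, DESeq2 called 2 and had 1006 below an unadjusted 0.05, and limma on the rlog values called 0 and had 448. Cd4 had a log2 fold change of 0.07 ± 0.50 (SE, adjusted p = 0.989). Lck had 0.85 ± 0.57 (adjusted p = 0.957), Trbc1 0.28 ± 1.01 (adjusted p = 0.974) and Cd3g -0.56 ± 1.36 (adjusted p = 0.959). The standard errors of all but Cd4 and Lck were above 1 on the log2 scale, so a 2-fold rise lay within 1 SE of the estimate for Trbc1 and a 2-fold fall within 1 SE of that for Cd3g. Without the library labelled A53T replicate 3, Cd4 had a log2 fold change of 0.23, Lck of 0.73 and Cd3g of -1.76, and none was called (edgeR adjusted p = 1.00 for each).

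The 5 members below the filter were read from the test over all rows with at least 1 read. Cd3d had a log2 fold change of 2.14 ± 1.73 (SE, edgeR adjusted p = 0.650), Cd3e of 1.41 ± 1.40 (adjusted p = 0.719) and Cd8a of 1.28 ± 1.53 (adjusted p = 0.782). Trac had -0.63 ± 1.46 (adjusted p = 0.90) and Trbc2 0.56 ± 1.37 (adjusted p = 0.905). In exact permutation tests of the CPM values (2-sided, over all assignments of the libraries, smallest possible p 0.00794) the 9 unadjusted p-values ran from 0.143 for Lck to 0.921 for Trac, with 0.873 for Cd4, and the EV and A53T values overlapped for every member. The sign of the Trac difference rests on EV replicate 3: without it the log2 fold change was 2.74 (edgeR adjusted p = 0.618).

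Summed over Cd3d, Cd3e, Cd3g, Trac, Trbc1 and Trbc2, the libraries held 70, 14, 125, 32 and 14 reads in EV and 73, 8, 109, 119 and 31 in A53T. The EV libraries averaged 3.58 ± 3.90 CPM and the A53T libraries 3.34 ± 2.08 CPM (SD, n = 5 each). The level was highest in EV replicate 3 at 9.88 CPM (exact Poisson 95% interval 8.22 to 11.8) and lowest in A53T replicate 2 at 0.538 CPM (0.232 to 1.06). These intervals cover counting error, and without molecular identifiers PCR copies of the same fragment count as separate reads. All 6 genes had reads in the same library only in the libraries labelled A53T replicates 1, 3 and 4.

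No relation of Cd4 with these receptor genes was detected. A53T replicate 2 had the most Cd4 reads (311) and the fewest receptor reads (8), a ratio of 38.9 Cd4 reads for each receptor read. A53T replicate 4 had the fewest Cd4 reads (52) and the second most receptor reads (119), a ratio of 0.437. Over the 10 libraries the correlation of Cd4 (log2 CPM with a prior count of 2) with the summed receptor CPM was r = -0.264 (permutation p = 0.453) and Spearman's rho = -0.430 (permutation p = 0.219), with adjusted p of 0.518 and 0.260 over 16 relations. It was 0.33 within EV and -0.91 within A53T, given as values with 5 libraries each.

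The same comparison was made with 15 other measures, 12 of them scores of cell type markers (the mean log2 CPM of the markers). Cd4 rose with the scores of neurons, of striatal projection neurons, the main neurons of the striatum, and of astrocytes, and fell with that of homeostatic microglia. With the neuron score r was 0.890 (permutation p = 0.00087, adjusted p = 0.00348) and rho was 0.758 (permutation p = 0.0150, adjusted p = 0.0401). With striatal projection neurons r was 0.906 (permutation p = 0.00019, adjusted p = 0.00304) and rho was 0.867 (permutation p = 0.00191, adjusted p = 0.0272). With astrocytes r was 0.899 (permutation p = 0.00041, adjusted p = 0.00328) and rho was 0.830 (permutation p = 0.00478, adjusted p = 0.0272). These 3 scores went with Cd4 to a like degree, and the values do not rank them.

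With homeostatic microglia r was -0.842 (permutation p = 0.00144, adjusted p = 0.00461) and rho was -0.830 (permutation p = 0.0051, adjusted p = 0.0272). Cd4 also rose with the share of counts in the 2 mitochondrial ribosomal RNAs, which ran from 10.9% to 50.9% (r = 0.881, permutation p = 0.00062, adjusted p = 0.00331; rho = 0.794, permutation p = 0.00881, adjusted p = 0.0352). Without the libraries labelled A53T replicates 3 and 4 this r was 0.701. The relation missed the threshold in 2 of 17 alternatives (largest permutation adjusted p = 0.134). Scores and Cd4 are shares of the same library, so part of an inverse relation is built in, and the p-values do not allow for that.

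Much of the range of these relations came from the libraries labelled A53T replicates 3 and 4, which are also the 2 libraries that lie farthest from the median of the neuron score. Without them r with the neuron score was 0.71 (permutation adjusted p = 0.134, 8 libraries), with striatal projection neurons 0.834 (adjusted p = 0.125), and with microglia -0.719 (adjusted p = 0.134), so that none passed the threshold. Without the 2 libraries farthest from the median of each measure r was 0.745 for astrocytes (A53T replicates 2 and 4 out) and -0.734 for microglia (the same libraries out). The astrocyte relation also missed the threshold in 2 of 17 alternatives (smallest r 0.72, largest permutation adjusted p = 0.134). Each direction was also seen inside the groups: r with the neuron score was 0.715 in EV and 0.978 in A53T, and with microglia -0.762 and -0.882. With group means removed r was 0.936 for neurons (exact within-group permutation p = 0.00139) and -0.851 for microglia (p = 0.00924). The A53T values and those with group means removed still include the libraries labelled A53T replicates 3 and 4. Their neuron scores were 4.67 and 4.16, against 5.77 to 6.24 in the other A53T libraries. On library totals without TMM scaling the neuron and microglia relations were weaker, at 0.72 and -0.66 (adjusted p = 0.104 for each).

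**Figure D2:**
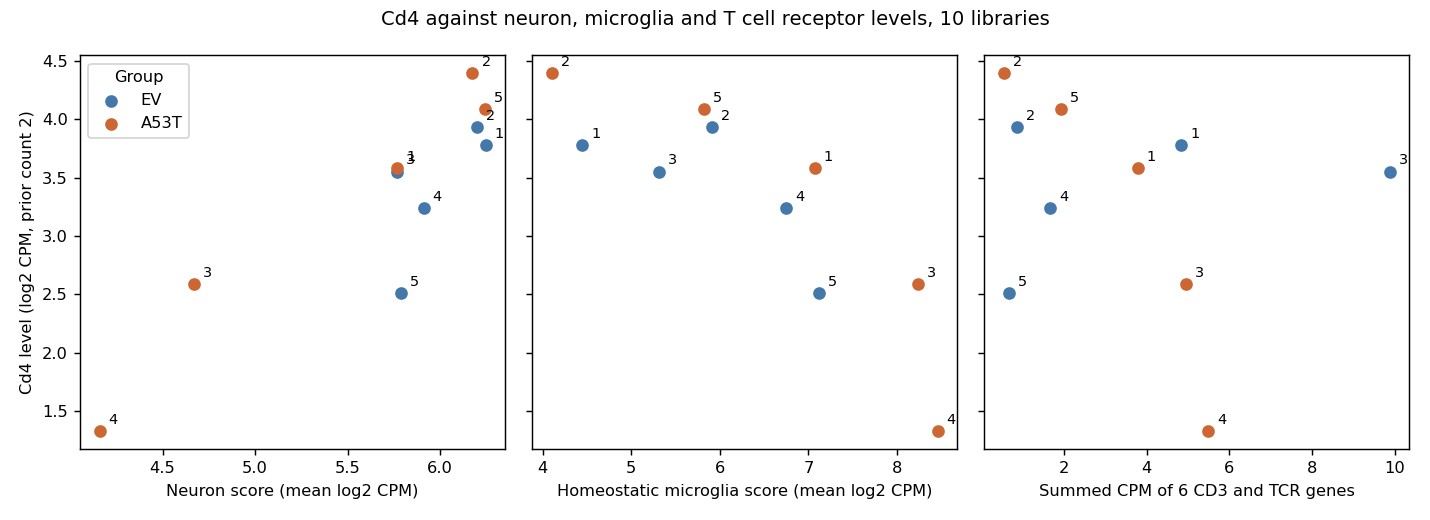
Cd4 level (log2 CPM, prior count 2) against the neuron score (left), the homeostatic microglia score (middle) and the summed CPM of 6 CD3 and T cell receptor genes (right). Points are the 10 libraries coloured by group and numbered by replicate, and Cd4 rose to the right with neurons (r = 0.890) and fell with microglia (r = -0.842). The libraries labelled A53T replicates 3 and 4 stand apart at the low end of the neuron score.

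Other scores went with Cd4 less closely or not detectably. GABAergic interneurons had r = 0.786 (permutation adjusted p = 0.0187) and rho = 0.758 (adjusted p = 0.0401). Their r was 0.621 without the libraries labelled A53T replicates 3 and 4. The relation missed the threshold in 2 of 17 alternatives (largest permutation adjusted p = 0.270). Cortical and other glutamatergic neurons had r = 0.723 (adjusted p = 0.0320) but rho = 0.648 (adjusted p = 0.0874), and r was 0.467 without EV replicate 2 and A53T replicate 4. Pericytes and smooth muscle had r = -0.775 (adjusted p = 0.0193) with rho = -0.709 (adjusted p = 0.0598), and r was -0.54 without A53T replicate 4 (adjusted p = 0.213). The scores of dopaminergic neurons (r = 0.212), oligodendrocytes (-0.528), oligodendrocyte precursors (0.15), endothelial cells (-0.461) and border-associated macrophages (-0.598) and the library total (0.536) did not pass, with adjusted p from 0.107 to 0.687. The dopaminergic score was low, from -1.09 to 1.43 log2 CPM. Of its markers that passed the filter 3 had a positive and 3 a negative r with Cd4 (Th 0.69, Ddc -0.66). This score therefore cannot show that a relation is absent. Without EV replicate 3 the endothelial score (-0.78) and the library total (0.77) passed, each with an adjusted p of 0.0239.

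Bpifa2 fell into 2 separate clusters of 5 libraries, so no correlation is given for it. Cd4 averaged 13.5 CPM in the 3 EV libraries and 16.4 CPM in the 2 A53T libraries with 100 or more Bpifa2 reads. It averaged 7.45 CPM in the other 2 EV libraries and 8.40 CPM in the other 3 A53T libraries. Within each class the A53T mean was above the EV mean and the values of the groups overlapped. The part of carried-over gland tissue in the Cd4 values was not tested.

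The size of the relation was read from a fit of all genes on each score with the group as a further term. Cd4 rose by 1.33 ± 0.22 log2 units per unit of neuron score (SE, edgeR quasi-likelihood adjusted p = 0.000679). The synaptic gene Snap25, itself part of the score, rose by 1.37 ± 0.16, and P2ry12, a purinergic receptor gene of resting microglia, fell by 1.78 ± 0.38. This fit called 15.8% of all genes as rising and 12.6% as falling with the neuron score, so a call there is common. On the microglia score Cd4 fell by 0.53 ± 0.12 log2 units per unit (SE, edgeR adjusted p = 0.00539), where 15.3% of all genes rose and 15.5% fell. Of the other members that passed the filter, Lck (slopes -0.03 ± 0.47 and -0.08 ± 0.22), Cd3g (-1.28 ± 1.23 and 0.04 ± 0.62) and Trbc1 (-0.03 ± 0.85 and 0.13 ± 0.45) were not called on either score. Without the libraries labelled A53T replicates 3 and 4 the Cd4 slopes were 1.54 (adjusted p = 0.168) and -0.33 (adjusted p = 0.156).

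A log ratio to a score does not depend on how libraries are scaled. Cd4 alone had an SD of 0.92 log2 units over the 10 libraries. Taken relative to astrocytes the SD was 0.42, relative to neurons 0.43 and relative to striatal projection neurons 0.44. It was 0.57 relative to GABAergic interneurons, 0.88 relative to cortical and other glutamatergic neurons and 1.07 relative to dopaminergic neurons. It was 0.91 relative to oligodendrocyte precursors, 1.22 to oligodendrocytes, 1.29 to endothelial cells and 1.46 to pericytes and smooth muscle. Relative to border-associated macrophages it was 1.98 and relative to homeostatic microglia 2.30. Such an SD also depends on the spread of the score itself, and the microglia score ran from 4.10 to 8.46. The log2 ratio of Cd4 to the neuron score ran from -3.28 to -1.78 and that to the astrocyte score from -4.46 to -3.25, while that to the microglia score ran from -7.13 to 0.29.

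Gene by gene, all 12 markers of striatal projection neurons and all 10 of astrocytes correlated positively with Cd4, with median r of 0.87 and 0.88, and all 12 microglial markers negatively, with a median of -0.83. The median over the 13984 genes whose average log2 CPM was 1 or more was -0.10. Several lists were split. In the oligodendrocyte list Mbp and Mobp, whose mRNAs are carried out into the myelin sheath, had r of 0.91 and 0.89, whereas the myelin gene Mog had -0.73, and 6 of the 8 genes were negative. In the neuron list the synaptic genes Snap25 and Syt1 had 0.94 and 0.93, whereas Elavl4, which encodes a neuronal RNA-binding protein, had -0.64 and the tubulin gene Tubb3 -0.21. Camk2a and Nrgn, whose mRNAs are found in dendrites, had 0.91 each, whereas Slc17a7 of the same list had 0.62. In the oligodendrocyte precursor list 3 genes were positive and 5 negative, with Pdgfra at 0.87 and Sox10 at -0.70. The part of mRNA location in these splits was not tested. These examples were chosen after their values were seen, and the correlations are descriptions over the same 10 libraries.

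**Figure D3:**
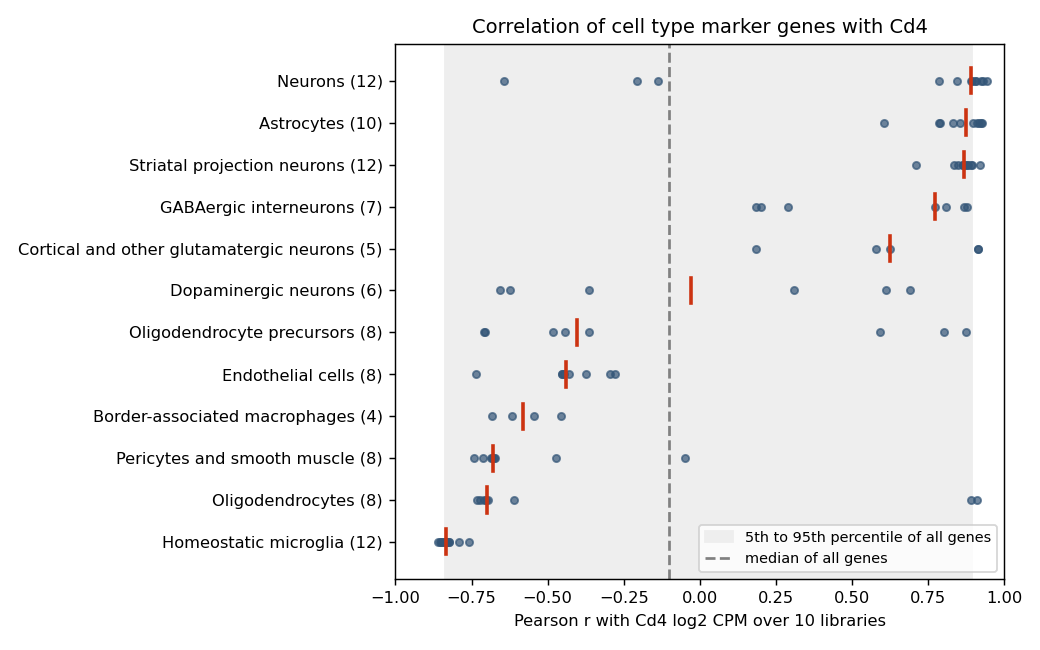
Pearson r of single marker genes (points) with the Cd4 level over the 10 libraries, by cell type list, with the number of genes in parentheses and the list median as a red bar. The grey band spans the 5th to 95th percentile of all genes and the dashed line is their median of -0.10. Microglial markers lie at the left and the oligodendrocyte list is split.

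The genes closest to Cd4 over the 10 libraries were, by Pearson r, Epha7 (0.967), which encodes an ephrin receptor, Epb41l4b (0.967), TrnK (0.963), a transfer RNA of the mitochondrial genome, Gfod1 (0.961), Dbndd2 (0.960), the kinase gene Cdc42bpa (0.960), Clstn3 (0.960), which encodes a synaptic adhesion protein, and the transcription factor gene Egr4 (0.959). At the opposite end were the RNA-binding protein gene Hnrnpdl (-0.978), Cnot2 of the deadenylase complex (-0.956), the translation initiation factor gene Eif1 (-0.946) and Rpph1, the RNA of ribonuclease P (-0.945). Of 13984 genes, 571 had r above 0.9 and 98 below -0.9, so Cd4 was one of many with this pattern and the order of the first names is not to be read closely.

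The genes on either side of Cd4 differed in the libraries where they were high. Gpr162, an orphan receptor gene, lies downstream of Cd4 on the same strand, with its start 497 bases from the 3′ end of Cd4. It had 16.2, 14.8, 26.9, 13.2 and 9.15 CPM in EV and 11.4, 19.0, 4.5, 7.11 and 17.3 CPM in A53T, and like Cd4 it was low in the libraries labelled A53T replicates 3 and 4. Its r with Cd4 was 0.74, and it rose with the neuron score by 0.72 ± 0.25 log2 units per unit (SE, edgeR adjusted p = 0.0496). On the other side Lag3, also on the minus strand, has its 3′ end 16111 bases upstream of the start of Cd4, and encodes an inhibitory receptor of T cells that binds MHC class II as CD4 does. Lag3 had 4.49, 4.04, 4.11, 14.9 and 20.1 CPM in EV and 18.5, 2.22, 56.8, 60.0 and 8.19 CPM in A53T.

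Lag3 was thus highest where Cd4 was low. Its r with Cd4 was -0.86, it rose with the microglia score by 1.04 ± 0.11 log2 units per unit (SE, edgeR adjusted p = 1.78e-05), and its r with that score was 0.96. A53T and EV overlapped for Lag3 as for Gpr162, with log2 fold changes of 1.61 ± 0.80 and -0.43 ± 0.41 (SE, edgeR adjusted p = 0.957 for each). Of the other 8 nearest genes Mlf2 had the highest r with Cd4 (0.81) and Cdca3 the lowest (-0.80), P3h3 had -0.36 and Ptms 0.47, and Gnb3 had no reads. No other row of the table overlaps Cd4 on either strand. The part of reads that run past the annotated end of a neighbour was not tested.

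**Figure D4:**
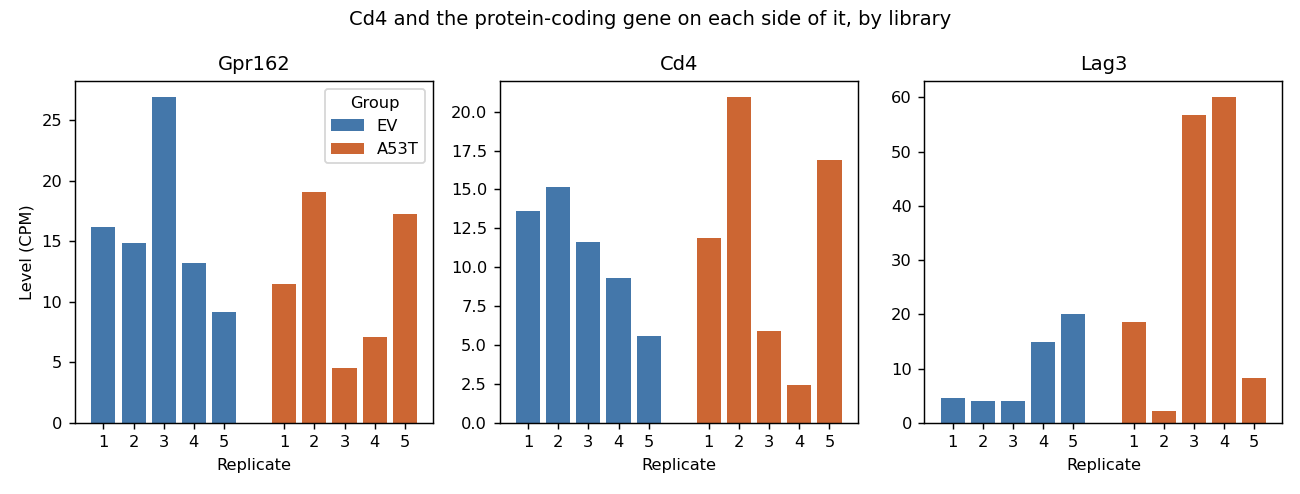
Level in CPM (vertical axes, each panel with its own scale from 0) of Gpr162, Cd4 and Lag3 in the 5 EV and 5 A53T libraries. In the libraries labelled A53T replicates 3 and 4 Cd4 and Gpr162 were low and Lag3 was at 56.8 and 60.0 CPM.

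Other genes of T cell biology fell into those with few reads and those with many. In the list of the CD3 and receptor constant chains 3 of 11 genes passed the filter, and in the effector list 4 of 12, of which Ccl5, a chemokine gene, averaged 1.79 CPM and Prf1, which encodes perforin, 1.15 CPM. Gzmb had 206 reads, Ifng 46, Il2 2 and Il4 0, and Foxp3, the factor of regulatory T cells, had 16. Among the signalling genes 11 of 16 passed, 7 with a positive and 4 with a negative log2 fold change in A53T (median 0.41, against 0.03 over all genes tested). Of the other lists, 2 of 4 coreceptor and Lck genes, 4 of 10 surface genes, 8 of 13 transcription factors, 8 of 10 homing genes, 3 of 6 checkpoint receptors and all 5 genes of the CD4 ligand list passed the filter, with median log2 fold changes from -0.70 for surface genes to 1.31 for checkpoint receptors. None of the genes of the 9 T cell lists was called between A53T and EV in the edgeR quasi-likelihood test, where 0% of all genes were.

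The well-read genes of these lists differed in the scores they went with, and some went closely with neither, such as the transcription factor genes Tcf7 (13.3 CPM, r = 0.03 with the neuron score and -0.32 with the microglia score) and Lef1 (17.6 CPM, -0.42 and 0.02). Bcl11b, a T cell factor that striatal projection neurons also use, averaged 271 CPM and had r = 0.99 with the neuron score. Rasgrp1, an activator of Ras, averaged 132 CPM with r = 0.97, and Thy1, a surface protein of T cells and neurons, 36.3 CPM with r = 0.98. Fyn, an Lck-related kinase also active in brain, averaged 77.6 CPM with r = 0.77. S1pr1, a receptor for T cell exit from lymph nodes, averaged 122 CPM and had r = 0.63 with the neuron score. Both went more closely, and inversely, with the microglia score, at r = -0.88 for Fyn and -0.90 for S1pr1.

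On the microglial side stood Ikzf1, a factor of blood cells, at 43.5 CPM (r = 0.96 with the microglia score), the checkpoint receptor gene Havcr2 at 33.97 CPM (r = 0.97), and Ptprc, the CD45 gene of all leukocytes, at 62.6 CPM (r = 0.83). Itga4, an integrin gene for entry into tissue, averaged 13.4 CPM with r = 0.67. Ptprc and Itga4 went about as closely, and inversely, with the neuron score (r = -0.85 and -0.66). The CD3 and receptor genes that passed the filter, and the kinase gene Lck, went closely with neither score: Cd3g had r = -0.24 with the neuron score and -0.13 with the microglia score, Trbc1 -0.24 and 0.34, Cd247 -0.45 and 0.17, and Lck -0.30 and 0.04. With so few reads of these genes a relation could be missed. These r are over the same 10 libraries and are descriptions.

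The ligand genes of CD4, and Cd74, which was listed with them but encodes no ligand, did not go with Cd4. The MHC class II genes H2-Aa, H2-Ab1 and H2-Eb1, the invariant chain gene Cd74 and Il16, a cytokine that binds CD4, all had negative r with Cd4, from -0.76 for Il16 to -0.43 for H2-Aa. In EV libraries Cd74 averaged 25.7 ± 23.3 CPM and Il16 8.45 ± 6.69 CPM, and in A53T libraries they averaged 33.6 ± 27.8 and 24.1 ± 21.2 CPM (SD, n = 5 each). All 5 log2 fold changes were positive (median 0.55) and none was called, with Il16 at 1.51 ± 0.77 (SE, edgeR adjusted p = 0.957). Il16 rose with the microglia score by 0.93 ± 0.12 log2 units per unit (SE, edgeR adjusted p = 0.000109).

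Markers of other lymphoid cells were present beside the T cell genes. Summed levels of 7 NK cell markers ran from 0.276 to 12.3 CPM in EV and from 1.08 to 9.69 CPM in A53T, and the best-read of them, the granzyme gene Gzma and the receptor gene Ncr1, averaged 1.07 and 0.800 CPM over the 10 libraries. Those of 6 B cell markers ran from 20.0 to 58.9 CPM and from 11.8 to 105 CPM, of which Ighm, the heavy chain gene of IgM, averaged 30.8 CPM and Pax5, a B cell factor, 3.83 CPM. Those of 7 dendritic cell markers ran from 7.81 to 20.6 CPM and from 7.18 to 16.7 CPM, with Zbtb46 at 9.20 CPM and Flt3 at 1.06 CPM on average. No marker of these 3 lists was called between A53T and EV, and their part in the T cell gene values was not tested.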

How the data were processed

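The deposited tables hold raw read counts per gene and, for the same rows, log2 values that the authors made from the counts as a regularized logarithm (rlog). DESeq2 1.24.0, featureCounts 1.6.4, STAR 2.7.2b and cutadapt 2.5 and the builds mm10 and GRCm38.p6 are listed in the submitters' processing notes, without a role or setting. The strand setting of the counting was not stated. Libraries were made from very little RNA with a stranded kit and 2 rounds of PCR, per the labels' protocols, so few molecules may stand behind a count.

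Counts were analysed with edgeR 4.0.16 in R 4.3.3 (quasi-likelihood test with robust dispersions, TMM scaling of library totals, default filter, Benjamini-Hochberg adjustment over all genes tested, threshold 0.05). The rlog values served as an alternative with limma 3.58.1, as did DESeq2 1.42.0. Each SE is the log2 fold change over the square root of F. Correlations used 100000 permutations, or exact permutations under 10 libraries, and were adjusted over 16 relations. A marker score took the list members with at least 10 reads over all libraries. Chromosome names and Cd4 transcripts came from RefSeq and GENCODE M21 annotation of GRCm38, and the printed sequences from the GENCODE M21 transcripts. Scripts were tested on simulated data.

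The members and gene lists were chosen with earlier results of these data known. Beside the members, the genes named are the 5 on each side of Cd4, the 8 with the highest and 4 with the lowest r with Cd4, the 2 of highest average CPM in each list described, Cd247, Cd8b1, Zap70, Snap25 and P2ry12. Others are named as the only ones at a count given or as examples chosen after their values were seen.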

Additional observations from a re-analysis of the deposited data

Results flagged for a closer look

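The EV and A53T values of 14 genes (the 9 members, Cd247, Cd8b1, Zap70, Lag3 and Gpr162) were searched for a library far from the other 4 of its group, with the gap to the nearest library above 0.71 of the group's range. This marked 6 of 28 groups. In normally distributed values chance marks about 1 group in 20, a rate that does not apply to sparse counts, where 1 read beside 4 libraries at 0 is always marked. Trac was at 6.56 CPM in EV replicate 3, with the next EV library at 0.286 CPM, and Cd247 was at 3.71 CPM in the same library, with the next at 1.03 CPM. Cd3d was at 0.0790 CPM there from 1 read, and at 0 in the other EV libraries. Cd3g stood at 2.501 CPM in the library labelled A53T replicate 3, with the next at 0.518 CPM. Cd8a was at 0.983 CPM in EV replicate 4, and Lck at 2.42 CPM in EV replicate 1. Over the 10 libraries the variance of the Trac reads was 54.1 times that of counting error (Pearson chi-square per degree of freedom), and the ratio was 54.9 for Cd4, 23.2 for Cd3g, 12.5 for Cd8a and 2.87 for Trbc2.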

How the results depend on the processing

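The count of genes called between A53T and EV was 0, and became 2 with DESeq2, 1 with the replicate block, 1 without the libraries labelled A53T replicates 3 and 4, and 0 to 1 with single libraries left out (1 without the library labelled A53T replicate 3). No member was called under any alternative run, and the smallest adjusted p was 0.528 (Cd3d). The log2 fold change of Cd4 changed sign with the rlog values (-0.13), with the replicate block (-0.21) and with single libraries left out (-0.27 to 0.33). It rose to 0.53 with the neuron score as a covariate and to 0.58 without the libraries labelled A53T replicates 3 and 4, and the covariate moved Cd3g to -1.77, Trac to -1.75 and Cd3e to 0.37. Smaller members also changed sign: Cd3g on library totals (0.053) and with a term for Bpifa2 (1.05), Trac with the rlog values (0.099), the replicate block (0.48), the Bpifa2 term (0.49) and single libraries left out (-1.14 to 2.74), and Trbc1 with single libraries left out (-0.035 to 0.81). Library totals without TMM moved the median log2 fold change of all genes from 0.03 to 0.28. Without the libraries labelled A53T replicates 3 and 4 the slope of Cd4 was 1.54 on the neuron score (edgeR adjusted p = 0.168) and -0.33 on the microglia score (0.156), and with the replicate block it was -0.43 on the latter (0.178). The correlations of Cd4 with neurons and microglia fell to 0.72 and -0.66 on library totals (permutation adjusted p = 0.104 for both) and to 0.71 and -0.72 without the libraries labelled A53T replicates 3 and 4 (0.134 for both), and stayed past the threshold when any single library was left out. The relation with dopaminergic neurons changed sign on library totals (-0.11), without that pair (-0.28) and with single libraries left out (-0.060 to 0.50), as did that with oligodendrocyte precursors (-0.40 on library totals, -0.26 to 0.34 with single libraries left out). The causes were not tested. Of 255 recomputed correlations 224 kept direction and side of the threshold, and of 178 member fold changes 165. Equal replicate numbers did not pair the libraries (r from -0.37 to 0.31 between same-numbered libraries). The members other than Cd4 and Lck had few reads, and each of them was at 0 in at least 1 library. The parts of sequencing depth and of few input molecules in this were not tested.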
